A study of Mus musculus with 10 samples.

Results

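Enzymes that build purines, pyrimidines and deoxyribonucleotides were followed in mouse medulloblastoma, a malignant tumour of the cerebellum. Their members were taken from a list of 40 gene symbols, as every probe set annotated to only one of those symbols on the Affymetrix 430A and 430B chips. This gave 39 genes of 18193 and 95 probe sets of 45137, with 72 probe sets on 430A and 23 on 430B. Impdh2, which starts GMP synthesis, had no probe set naming it alone and was not analysed here. A filter on low values kept 87 of the 95 probe sets, and each of the 39 genes was still represented.

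RNA came from 3 medulloblastomas and from 2 samples of adjacent wild type cerebellar tissue, and each chip held 3 tumour and 2 cerebellum arrays. Both tissues came from CAGGS-CreER;R26-SmoM2 mice injected with tamoxifen at postnatal day 10 (1 mg per 40 g of body weight). CreER, a recombinase that works once tamoxifen is given, was under the broadly active CAGGS promoter, and SmoM2 is a constantly active Smoothened, which switches on Hedgehog signalling. The cerebellum samples therefore shared the alleles and the tamoxifen with the tumours. The labels give no age at collection and do not say whether a tumour and a cerebellum sample came from the same mouse or whether tissue was pooled. They name the samples biological replicates, and the p-values reflect only how far these samples scatter, which may be partly technical.

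Every dividing cell has to copy its genome from a pool of deoxyribonucleoside triphosphates. Purine and pyrimidine rings are built from amino acids, bicarbonate and one-carbon units carried on folate, ribonucleotide reductase turns ribonucleotides into deoxyribonucleotides, and thymidylate is made separately from dUMP. Cells that no longer divide rely more on salvage kinases and on a second small subunit of the reductase for mitochondrial DNA and repair. In the postnatal cerebellum granule neuron precursors are the main dividing cells, and Hedgehog signalling drives their division.

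The tumours lacked most of the signal of mature cerebellar cells and carried the markers of dividing cells. Summed over 6 mature neuron genes, listed for granule neurons, intensity was 264 to 372 in the tumours and 7548 to 8614 in the cerebellum samples. A large part came from Snap25, with 203, 145 and 181 in the tumours, against 2972 and 3408 in the cerebellum samples. The sum is therefore not a measure of granule neurons alone. For 11 dividing-cell genes the sum was 5155 to 5974 in the tumours, against 723 and 390.2 in cerebellum 1 and cerebellum 2. All 11 of those genes were higher in medulloblastoma, led by Top2a at a log2 fold change of 4.19 ± 0.43 (adjusted p = 2.7e-05). All 6 of the mature neuron genes, all 4 measured Purkinje cell genes and all 4 measured oligodendrocyte genes were lower. Of 5 granule precursor genes 4 were higher, and 1, Zic1, was lower. Of the 6 microglia genes 4 were higher, with summed intensities of 867 to 1096 in the tumours and 316 to 379.6 in the cerebellum samples. Of 6 astrocyte genes 4 were lower, and of 5 endothelial genes 1 was lower. No marker stood at the floor of 1 unit in any array. The sample titles use the same tumour numbers on both chips. On the 100 probe sets that both chips carry, 430B tumour 1 correlated best with 430A tumour 3 (r = 0.959), 430B tumour 2 with 430A tumour 1 (r = 0.971) and 430B tumour 3 with 430A tumour 2 (r = 0.959). Same-numbered tumours 1, 2 and 3 had r = 0.938, 0.883 and 0.922. Whether a number names the same tumour on both chips was not tested, so tumour numbers were not matched between the chips.

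Medulloblastoma had higher values for 17 of the 39 genes and lower values for 2, while 20 were not called. That is 43.6% higher and 5.13% lower, against 10.7% and 16% of the 14702 genes tested over both chips. A call is an adjusted p below 0.05 in limma's moderated test, fitted over every tested probe set of a chip on log2(intensity + 16), and every fold change is on that scale, which understates changes of dim probe sets; ± beside a fold change is its standard error. The median log2 fold change was 0.48 over the 39 genes and -0.05 over all genes tested. Every tumour lay above both cerebellum samples in 24 of the 39 genes and below both in 2, against 22.2% and 30.1% of all genes tested. Of the 17 higher genes, 12 kept their call under each alternative processing that tested them, namely Rrm1, Rrm2, Dut, Dtymk, Tk1, Dck, Ctps, Uck2, Gart, Atic, Mthfd2 and Nme2. With 1 cerebellum sample left out, 13 genes were higher, whichever sample it was. Calls over all probe sets of each chip also became fewer in those fits. Because whole tissue was profiled, fewer cells of a type and less RNA per cell cannot be told apart.

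**Figure D1:**
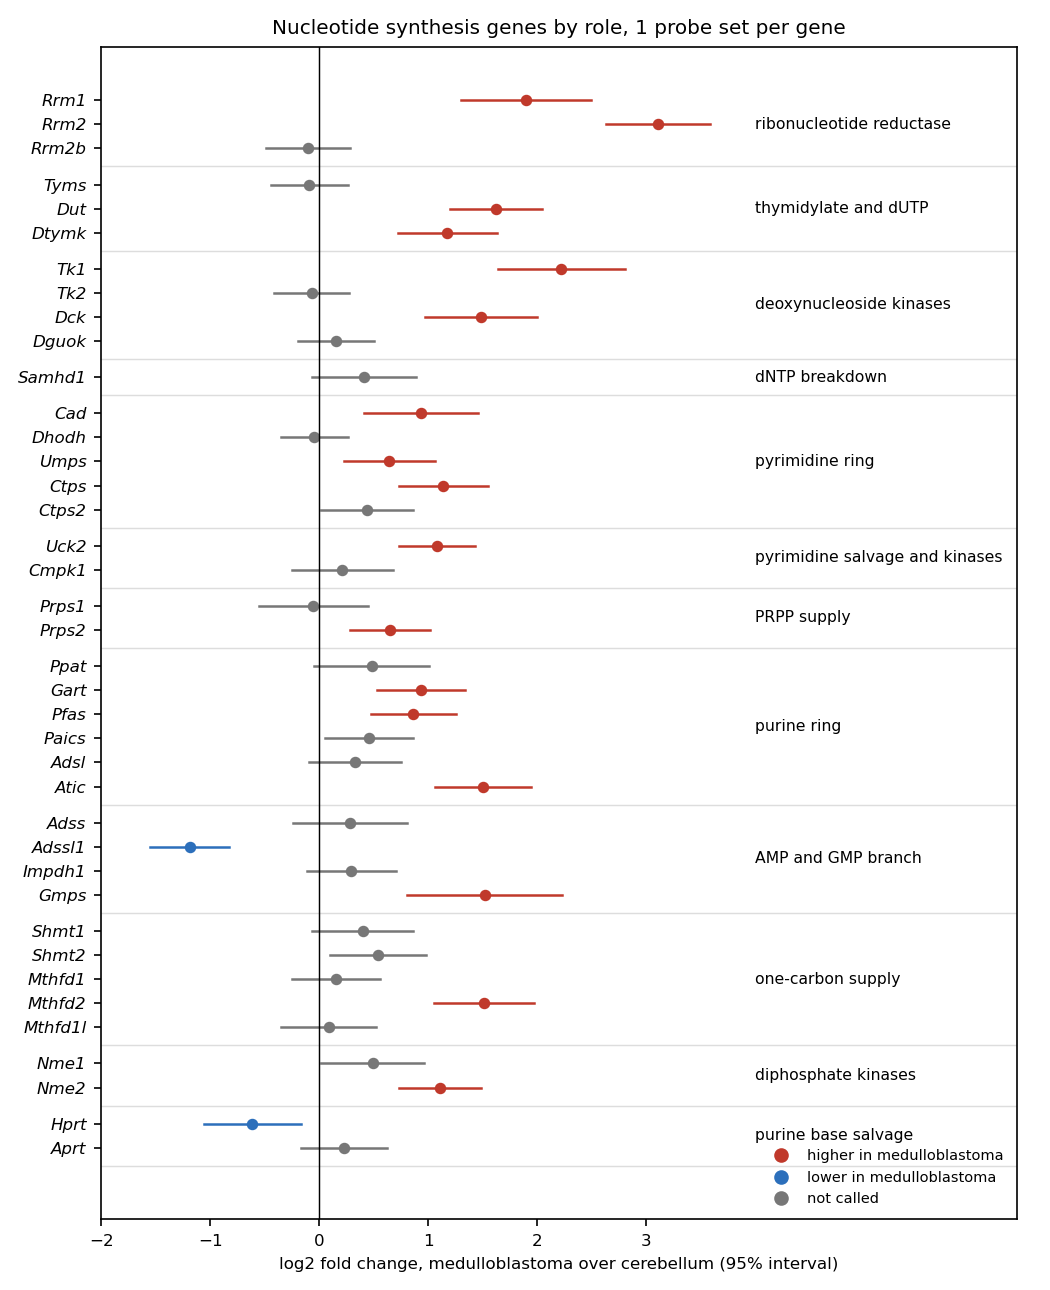
Log2 fold change of medulloblastoma over cerebellum for the 39 genes, 1 probe set each, ordered by role, with 95% intervals from limma (3 tumours and 2 cerebellum samples per chip). The 17 genes called higher are spread over most roles, and the 2 called lower are Adssl1 and Hprt.

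Both subunits of the ribonucleotide reductase of dividing cells rose, and Rrm2 had the largest fold change of the 39 genes. Rrm2, the small subunit made in dividing cells, had an intensity of 231, 207 and 269 in the tumours, against 19.3 and 7.91 in the cerebellum samples. The tumours lay within a narrow range and the cerebellum samples far below it, with cerebellum 1 above cerebellum 2. Tumours averaged 236 ± 30.9 (SD, n = 3) and cerebellum samples 13.6 ± 8.02 (SD, n = 2), and the log2 fold change was 3.11 ± 0.22 (adjusted p = 2.13e-06). The other Rrm2 probe sets gave 3.29 ± 0.33 and 2.88 ± 0.25. Rrm1, the large catalytic subunit, read 328, 164 and 260.3 in the tumours, against 61.8 and 45.3 in the cerebellum samples. Its groups did not overlap, tumour 2 was the lowest tumour, and the log2 fold change was 1.90 ± 0.27 (adjusted p = 0.000255). Its other 430A probe set gave 1.997 ± 0.21, and a dim one on 430B, with 12.3, 11.95 and 24.7 in the tumours, against 8.46 and 6.72 in the cerebellum samples, gave 0.43 ± 0.19 (adjusted p = 0.167). Rrm2b, the small subunit that p53 induces and that serves cells outside S phase, had 57.8, 58.8 and 63.97 in the tumours, against 56.2 and 76.2 in the cerebellum samples. These values overlapped, and the log2 fold change was -0.10 ± 0.17 (adjusted p = 0.724), with a 95% interval of -0.48 to 0.28. Its 4 tested probe sets ran from -0.24 to 0.03 and were not called.

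The promoters of Rrm1 and Rrm2 are shown because these are the subunits that rose. In these and the later promoters, which run from 250 bases before to 50 bases after the RefSeq transcript start and read 5′ to 3′ on the gene's strand, capitals mark any of 3 motifs searched on both strands: the letters CCAAT, which form the core of the box of that name, the letters CACGTG, which form an E-box, and the E2F words TTTCCCGC, TTTCGCGC, TTTGCCGC and TTTGGCGC.
Rrm1, GRCm38.p6, chr7:102441445-102441744, plus strand: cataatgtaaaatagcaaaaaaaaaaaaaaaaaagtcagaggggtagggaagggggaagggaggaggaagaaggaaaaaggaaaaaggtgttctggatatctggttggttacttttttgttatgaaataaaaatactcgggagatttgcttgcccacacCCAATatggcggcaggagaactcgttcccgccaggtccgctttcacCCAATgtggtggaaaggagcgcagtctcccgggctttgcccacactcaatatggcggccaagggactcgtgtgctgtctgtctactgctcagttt
Rrm2, GRCm38.p6, chr12:24708004-24708303, plus strand: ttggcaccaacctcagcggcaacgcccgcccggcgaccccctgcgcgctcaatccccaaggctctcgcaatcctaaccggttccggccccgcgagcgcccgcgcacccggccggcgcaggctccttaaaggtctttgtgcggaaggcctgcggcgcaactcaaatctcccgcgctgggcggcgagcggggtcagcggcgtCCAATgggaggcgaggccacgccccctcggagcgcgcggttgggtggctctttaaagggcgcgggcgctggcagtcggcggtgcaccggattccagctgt
Rrm1 held CCAAT at 91 and at 45 bases before the start, and Rrm2 held it at 50 bases before the start. CCAAT on either strand occurred in 37.4% of the 32851 promoter windows of the RefSeq table, in 7 of the 16 higher genes with a promoter there and in 5 of the 20 genes that were not higher. The E-box occurred in 7.15% of windows, in 2 of the 16 and in 3 of the 20. The 4 E2F words occurred in 2.26% of windows and in 1 gene of each set. No marked motif overlaps another in the promoters shown, and a match is a description of letters, not a site.

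Dut and Dtymk, on either side of thymidylate synthase, rose, and the probe sets that name Tyms alone were not called. Dut, which splits dUTP and so makes dUMP for thymidylate, had 259, 305 and 283 in the tumours, against 81.03 and 80.3 in the cerebellum samples. The tumours were well above both cerebellum samples, which were almost equal, and the log2 fold change was 1.62 ± 0.19 (adjusted p = 7.05e-05). A second Dut probe set was dim, overlapped between the groups and gave -0.14 ± 0.21 (adjusted p = 0.674). Dtymk, the kinase that takes dTMP to dTDP, read 231, 190.2 and 179 in the tumours, against 90.4 and 69.3 in the cerebellum samples, with no overlap and a log2 fold change of 1.17 ± 0.21 (adjusted p = 0.0011). Its other probe sets gave 1.002 ± 0.19 and 1.90 ± 0.25, so all 3 were higher. Tyms, which methylates dUMP to dTMP, was read by dim probe sets. The one used for the gene read 27.2, 33.2 and 38.8 in the tumours, against 39.2 and 32.97 in the cerebellum samples, which overlapped, with a log2 fold change of -0.09 ± 0.16 (adjusted p = 0.726). Another had 35.4, 23.95 and 18.95 in the tumours, against 15.9 and 13.7 in the cerebellum samples, all tumours above both cerebellum samples, with a log2 fold change of 0.43 ± 0.17 (adjusted p = 0.0848). The remaining pair fell below the filter on low values and was not tested. Of these, the 430B probe set read 19.7, 15.96 and 9.73 in the tumours, against 2.8 and 4.39 in the cerebellum samples, without overlap. The 430A probe set of that pair overlapped between the groups. A probe set annotated to both Tyms and the pseudogene Tyms-ps was set aside by the membership rule, and its log2 fold change was 1.99 ± 0.22 (adjusted p = 3.91e-05).

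Of the deoxynucleoside kinases, the cytosolic pair rose and the mitochondrial pair was not called. Tk1, the cytosolic thymidine kinase of S phase, had 154, 63.9 and 111 in the tumours, against 10.7 and 8.82 in the cerebellum samples. No tumour came near the cerebellum samples, tumour 2 was the lowest of the 3, and the log2 fold change was 2.22 ± 0.26 (adjusted p = 7.17e-05). Dck, the cytosolic deoxycytidine kinase, read 124, 198 and 210.4 in the tumours, against 51.2 and 51.7 in the cerebellum samples, without overlap, with a log2 fold change of 1.49 ± 0.23 (adjusted p = 0.000496). Its other probe sets gave 1.07 ± 0.22 and 0.55 ± 0.16, both higher. Tk2, the mitochondrial thymidine kinase, had 29.1, 29.7 and 33.95 in the tumours, against 28.3 and 38.6 in the cerebellum samples. The cerebellum samples spanned the tumours, the fold change was -0.07 ± 0.15 (adjusted p = 0.784), and the 95% interval ran from -0.41 to 0.27. Dguok, the mitochondrial deoxyguanosine kinase, read 39.95, 42.01 and 41.2 in the tumours, against 29.6 and 41.7 in the cerebellum samples, also overlapping, with a log2 fold change of 0.15 ± 0.16 (adjusted p = 0.524), 95% interval -0.20 to 0.50. Samhd1, which breaks dNTPs down and is abundant in myeloid cells, had 31.1, 66.9 and 46.1 in the tumours, against 31.9 and 30.1 in the cerebellum samples. Only tumours 2 and 3 stood above the cerebellum samples clearly, and the gene was not called, at 0.41 ± 0.22 (adjusted p = 0.183). A second Samhd1 probe set was called at 0.45 ± 0.15 (adjusted p = 0.0371), and the last gave 0.01 ± 0.15. Of 6 microglia markers 4 were higher in the same tumours, C1qb by the most (2.37 ± 0.23). Csf1r (0.05 ± 0.20) and Cx3cr1 (0.38 ± 0.16) were not called. The part of microglia in the Samhd1 values was not tested.

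**Figure D2:**
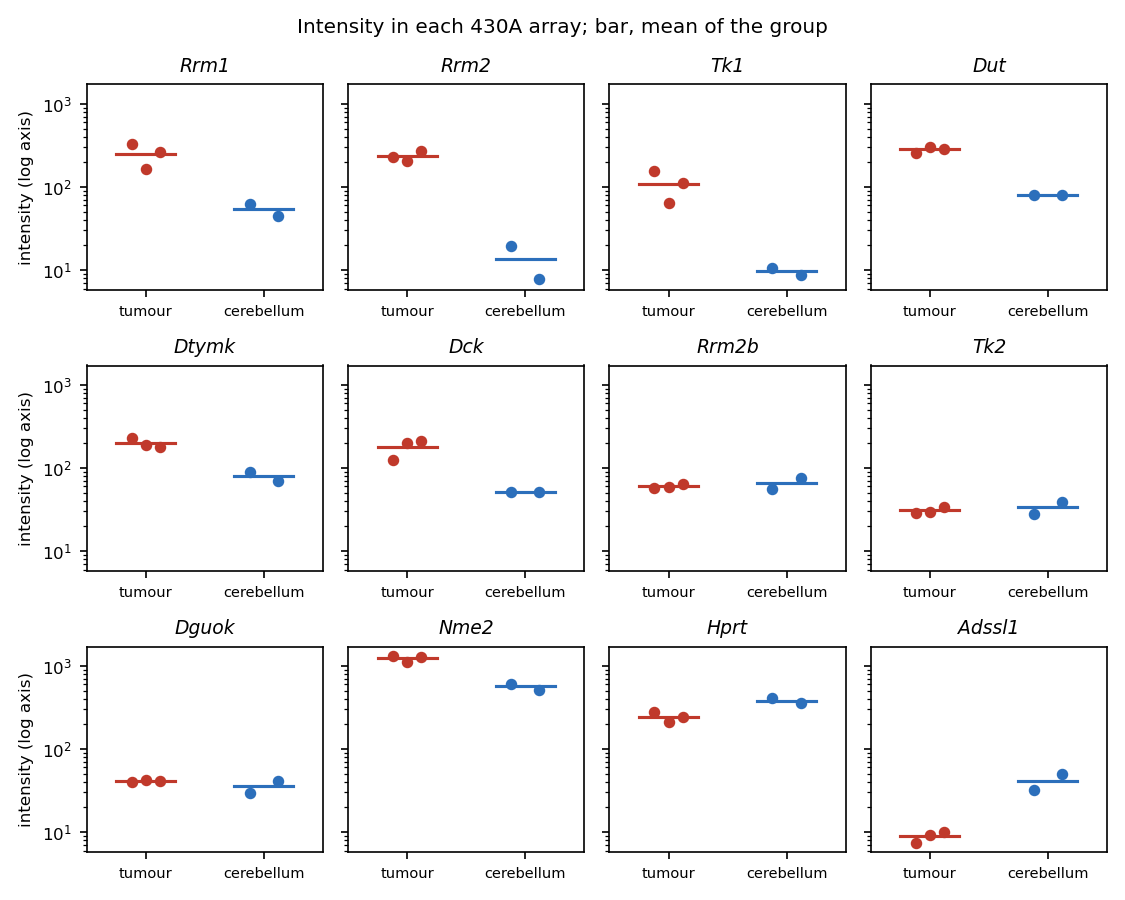
Intensity on a log axis in each 430A array for 12 genes, tumours (n = 3) left of cerebellum samples (n = 2), with the group mean as a bar. Rrm1, Rrm2, Tk1, Dut, Dtymk, Dck and Nme2 separate upward, Hprt and Adssl1 downward, and Rrm2b, Tk2 and Dguok overlap.

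Related enzymes were also set against each other within each array, as the log2 value of one gene minus that of its partner, so that the tumour minus cerebellum difference is the difference between their fold changes. Over 9 pairs on 430A, the tumours lay apart from both cerebellum samples in 8. Of all single genes tested, 22.2% had every tumour above both cerebellum samples and 30.1% had every tumour below. No such share was computed for other pairs of genes, so the count describes these pairs only. Each of the 8 pairs also holds a gene that was called by itself, so the count is not separate from those calls. Rrm2 against Rrm2b differed by 3.21 log2 units, Tk1 against Tk2 by 2.29, Dck against Dguok by 1.33, Mthfd2 against Mthfd1 by 1.36 and Adss against Adssl1 by 1.47. Ctps against Ctps2 differed by 0.71, Prps1 against Prps2 by -0.70 and Nme1 against Nme2 by -0.62. Shmt1 against Shmt2 gave -0.14, with overlap (exact p = 0.8). The exact permutation test, two-sided, gave p = 0.2 for each of the 8 separated pairs, which is the smallest p that 3 against 2 arrays allow, and 0.225 after adjustment over the 9 pairs.

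**Figure D3:**
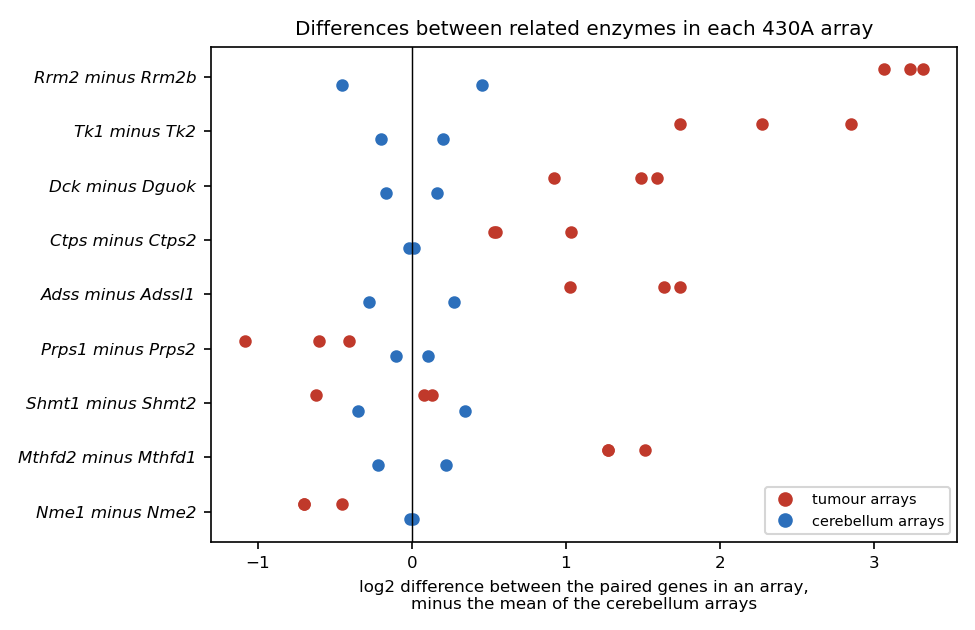
Log2 difference between related enzymes within each 430A array, set to the mean of the 2 cerebellum arrays, with the 3 tumours drawn above the cerebellum arrays of each pair. The tumours stand apart in every pair but Shmt1 minus Shmt2, farthest in Rrm2 minus Rrm2b at 3.07 to 3.32.

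In pyrimidine ring synthesis 3 of 5 genes rose, or 60%, against 10.7% of all genes tested, with log2 fold changes of 0.64 to 1.14. Ctps, which aminates UTP to CTP, had 187, 204 and 197 in the tumours, against 81.6 and 78.8 in the cerebellum samples. The groups were tight and did not overlap, with a log2 fold change of 1.14 ± 0.18 (adjusted p = 0.000643). Cad, the multifunctional enzyme of the first steps, read 44.2, 57.9 and 23.9 in the tumours, against 9.63 and 17.7 in the cerebellum samples. The tumours differed among themselves, with tumour 3 nearest to the cerebellum samples, and the log2 fold change was 0.93 ± 0.24 (adjusted p = 0.0108). A second probe set also rose (0.81 ± 0.25), and one on 430B with 13.2, 20.3 and 15.9 in the tumours, against 21.1 and 25.4 in the cerebellum samples gave -0.28 ± 0.15 (adjusted p = 0.263). Without cerebellum 1 the call for Cad ended (0.74, adjusted p = 0.119). Umps, which makes UMP from orotate, had 101, 77.2 and 106 in the tumours, against 59.8 and 49.3 in the cerebellum samples. The groups did not overlap and the log2 fold change was 0.64 ± 0.19 (adjusted p = 0.023), but the call ended when either cerebellum sample, tumour 1 or tumour 3 was left out (0.53 to 0.75). The other tested Umps probe set, also on 430A, overlapped between the groups and was not called, at 0.39 ± 0.19 (adjusted p = 0.158). Dhodh, the mitochondrial enzyme between Cad and Umps, was dim at 17.2, 20.02 and 17.8 in the tumours, against 21.8 and 17.02 in the cerebellum samples, which overlapped, with a log2 fold change of -0.04 ± 0.14 (adjusted p = 0.857). Ctps2, the second CTP synthase, read 93.1, 67.9 and 99.3 in the tumours, against 61.3 and 57.5 in the cerebellum samples. Every tumour was higher, but the log2 fold change of 0.43 ± 0.19 (adjusted p = 0.113) was not called. A further Ctps2 probe set on 430A overlapped between the groups, at 0.06 ± 0.18 (adjusted p = 0.843). On 430B every tumour lay below both cerebellum samples, and -0.31 ± 0.13 (adjusted p = 0.15) was not called either.

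Uck2, the uridine and cytidine kinase of pyrimidine salvage, rose. It had 66.6, 56.6 and 48.3 in the tumours, against 18.6 and 18.2 in the cerebellum samples, with no overlap and a log2 fold change of 1.08 ± 0.16 (adjusted p = 0.000334). On 430B its probe sets gave 1.16 ± 0.15 and 1.21 ± 0.16, and its other 2 tested probe sets on 430A gave 0.31 ± 0.14 and 0.46 ± 0.17, not called. Cmpk1, the UMP and CMP kinase, read 320.2, 242 and 334 in the tumours, against 259 and 248 in the cerebellum samples. Tumour 2 fell below both cerebellum samples, and the fold change was 0.21 ± 0.21 (adjusted p = 0.5).

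In purine ring synthesis 3 of 6 genes rose, or 50%, against 10.7% of all genes tested, and the others were not called. Atic, which carries out the last steps to IMP, had on 430B 189, 218 and 193 in the tumours, against 53.5 and 67.2 in the cerebellum samples. All tumours were far above the cerebellum samples, with a log2 fold change of 1.504 ± 0.20 (adjusted p = 0.000496). The other Atic probe set rose by 0.70 ± 0.14. Gart, a trifunctional enzyme of the early steps, read 158, 153 and 136 in the tumours, against 68.4 and 71.9 in the cerebellum samples, with tight groups and a log2 fold change of 0.94 ± 0.18 (adjusted p = 0.00227). Its 3 other tested probe sets had lower intensities and were not called, over a range of -0.19 to 0.32. Pfas, the amidotransferase between them, had on 430B 99.5, 99.00 and 75.7 in the tumours, against 42.4 and 42.9 in the cerebellum samples. The groups did not overlap, and the log2 fold change was 0.86 ± 0.18 (adjusted p = 0.00681). Leaving out either cerebellum sample ended its call while the fold change hardly moved (0.86 and 0.87). Adsl, which acts in the ring pathway and again on the way to AMP, read 70.5, 42.03 and 60.6 in the tumours, against 40.1 and 43.6 in the cerebellum samples, with tumour 2 between the cerebellum samples and a log2 fold change of 0.33 ± 0.19 (adjusted p = 0.227).

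Paics and Ppat lie on opposite strands of chromosome 5, and by their RefSeq starts, 276 bases apart, their 5′ ends overlap, so the upstream window of each lies within the other gene. Paics, a bifunctional enzyme of the middle steps, had 557, 532 and 513 in the tumours, against 359 and 411 in the cerebellum samples. Every tumour exceeded both cerebellum samples, though the difference of 0.46 ± 0.18 (adjusted p = 0.0833) was not called. Its other probe sets gave 0.58 ± 0.19 (adjusted p = 0.0403) and 0.43 ± 0.22 (adjusted p = 0.171), so 1 of 3 was called, with 3 similar fold changes. After quantile normalization the probe set used for the gene was called, at 0.83 (adjusted p = 0.00457). Ppat, the first committed enzyme of the pathway, read 70.6, 30.1 and 57.9 in the tumours, against 34.7 and 28.8 in the cerebellum samples. Tumour 2 lay between the cerebellum samples, and the fold change was 0.48 ± 0.24 (adjusted p = 0.157). A second Ppat probe set, without overlap, had 0.69 ± 0.24 (adjusted p = 0.0503), just outside the threshold, and without tumour 2 the first was called at 0.75 (adjusted p = 0.00287). The promoters of this pair are shown, with that of Atic, the member of the pathway with the largest rise.
Paics, GRCm38.p6, chr5:76951052-76951351, plus strand: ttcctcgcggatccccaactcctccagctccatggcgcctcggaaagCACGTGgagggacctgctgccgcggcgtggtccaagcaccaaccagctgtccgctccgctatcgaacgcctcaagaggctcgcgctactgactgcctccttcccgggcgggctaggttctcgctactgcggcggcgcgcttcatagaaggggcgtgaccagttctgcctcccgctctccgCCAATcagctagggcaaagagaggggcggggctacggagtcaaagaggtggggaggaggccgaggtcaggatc
Ppat, GRCm38.p6, chr5:76951529-76951828, minus strand: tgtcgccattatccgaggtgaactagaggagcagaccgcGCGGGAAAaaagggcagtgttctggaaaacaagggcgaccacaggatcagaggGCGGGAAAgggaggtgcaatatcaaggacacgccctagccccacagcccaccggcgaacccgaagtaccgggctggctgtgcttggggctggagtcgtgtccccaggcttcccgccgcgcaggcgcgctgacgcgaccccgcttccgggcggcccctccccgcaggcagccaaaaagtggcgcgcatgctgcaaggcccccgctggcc
Atic, GRCm38.p6, chr1:71556906-71557205, plus strand: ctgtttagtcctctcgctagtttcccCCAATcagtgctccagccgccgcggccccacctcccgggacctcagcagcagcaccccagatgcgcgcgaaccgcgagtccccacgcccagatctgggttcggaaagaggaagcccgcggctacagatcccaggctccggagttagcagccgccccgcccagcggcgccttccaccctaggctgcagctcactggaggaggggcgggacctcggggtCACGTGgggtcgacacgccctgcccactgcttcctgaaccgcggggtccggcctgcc
Paics held an E-box at 203 and CCAAT at 23 bases before its start, Atic held CCAAT at 224 and an E-box at 7 bases before its start, and Ppat held the E2F word on the opposite strand, as GCGGGAAA, at 211 and 158 bases before its start.

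Of the synthetases that make phosphoribosyl pyrophosphate, the sugar donor of purine synthesis and salvage, Prps2 rose and Prps1 was not called. Prps2 had 54.95, 54.9 and 50.5 in the tumours, against 34.8 and 22.7 in the cerebellum samples, without overlap, with a log2 fold change of 0.65 ± 0.17 (adjusted p = 0.0115). Its 430B probe set read 151, 137 and 71.7 in the tumours, against 49.9 and 50.5 in the cerebellum samples, with a log2 fold change of 0.98 ± 0.27 (adjusted p = 0.0296); the last gave 0.29 ± 0.15. The 430A call ended without cerebellum 2 (0.45, adjusted p = 0.207). Prps1 had 169, 117 and 183 in the tumours, against 172 and 149 in the cerebellum samples, overlapping, with a log2 fold change of -0.05 ± 0.23 (adjusted p = 0.892), 95% interval -0.55 to 0.44.

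Beyond IMP, the AMP and GMP branches held both a fall and a rise. Adssl1, the adenylosuccinate synthetase isozyme best known from muscle, had 7.38, 9.15 and 10.1 in the tumours, against 32.2 and 50.5 in the cerebellum samples. Every tumour was far below both cerebellum samples, averaging 8.89 ± 1.39 (SD, n = 3) against 41.4 ± 12.98 in the cerebellum samples (SD, n = 2). The log2 fold change was -1.19 ± 0.16 (adjusted p = 0.000211). Without cerebellum 2 the probe set fell below the filter on low values and was not tested. Adss, the isozyme of most tissues, read 217, 136 and 226 in the tumours, against 158 and 148 in the cerebellum samples, with tumour 2 below both cerebellum samples and a log2 fold change of 0.28 ± 0.24 (adjusted p = 0.422). Markers of mature neurons and of oligodendrocytes fell in the same tumours, the 4 oligodendrocyte genes to summed intensities of 105 to 248, against 3662 to 4546 in the cerebellum samples, and their part in the fall of Adssl1 was not tested. Impdh1, the isozyme of IMP dehydrogenase that was measured, had 64.3, 73.3 and 53.4 in the tumours, against 40.8 and 57.5 in the cerebellum samples. Tumour 3 lay between the cerebellum samples, and the log2 fold change was 0.30 ± 0.19 (adjusted p = 0.269).

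Gmps, which aminates XMP to GMP, gave different answers by probe set, all of them on 430B. The one used for the gene read 355, 321 and 162 in the tumours, against 92.8 and 72.7 in the cerebellum samples. All tumours were above the cerebellum samples, tumour 3 by the least, and the log2 fold change was 1.52 ± 0.32 (adjusted p = 0.00802). One of the others had 149, 133 and 100.01 in the tumours, against 159.8 and 188 in the cerebellum samples, and the last had 148, 106 and 52.5 in the tumours, against 155 and 146 in the cerebellum samples. These had log2 fold changes of -0.42 ± 0.22 (adjusted p = 0.261) and -0.58 ± 0.32 (adjusted p = 0.278), and the mean over the 3 probe sets was 0.17 (adjusted p = 0.739). Without cerebellum 1 or cerebellum 2 the probe set used for the gene was no longer called (1.66, adjusted p = 0.0576, and 1.37, adjusted p = 0.128). On the probe sets shared by the chips, mean log2 intensity was 8.06 and 8.01 in 430B tumours 1 and 2, against 7.47 in tumour 3 and 7.58 and 7.69 in the cerebellum samples. With the 430B arrays scaled on those probe sets the fold changes were 1.33 for Gmps, 1.33 for Atic and 0.70 for Pfas, all still called.

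In one-carbon supply 1 of 5 genes rose by its chosen probe set, or 20%, against 10.7% of all genes tested. With 1 gene in so small a set, the count is near that share. Mthfd2, the mitochondrial methylenetetrahydrofolate dehydrogenase that is high in embryos and tumours, had 152, 188 and 138 in the tumours, against 54.5 and 36.9 in the cerebellum samples. The groups did not overlap, and the log2 fold change was 1.51 ± 0.21 (adjusted p = 0.000214), with a second probe set at 1.203 ± 0.20. Mthfd1, the cytosolic trifunctional enzyme, read 127, 131 and 116 in the tumours, against 109 and 111 in the cerebellum samples. Each tumour exceeded both cerebellum samples by a small margin, and the fold change was 0.16 ± 0.18 (adjusted p = 0.582), with an interval of -0.25 to 0.56. Mthfd1l, the mitochondrial formate synthetase, had on 430B 149.6, 134 and 150.3 in the tumours, against 138 and 132 in the cerebellum samples, with overlap and a log2 fold change of 0.09 ± 0.19 (adjusted p = 0.816).

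For the serine hydroxymethyltransferases the call depended on the probe set. Shmt2, the mitochondrial enzyme, read 34.3, 61.2 and 34.6 in the tumours, against 21.8 and 26.4 in the cerebellum samples by the probe set used for the gene, with a log2 fold change of 0.54 ± 0.20 (adjusted p = 0.0634). Its 3 other probe sets, whose suffix marks possible cross-hybridisation, were all higher, at 1.13 to 1.40. One of these had 78.1, 155 and 71.4 in the tumours, against 21.9 and 31.7 in the cerebellum samples, with tumour 2 the highest and no overlap. Shmt1, the cytosolic enzyme, had 145, 136 and 152 in the tumours, against 130.3 and 85.5 in the cerebellum samples, with a log2 fold change of 0.40 ± 0.21 (adjusted p = 0.187). Its other probe sets ran from a not called -0.34 ± 0.19 to 1.69 ± 0.15 (adjusted p = 1.13e-05). That last one read 72.9, 77.7 and 80.6 in the tumours, against 10.9 and 15.1 in the cerebellum samples, tight and far apart. The mean over probe sets was called for both genes, at 1.10 for Shmt2 (adjusted p = 0.0052) and 0.75 for Shmt1 (adjusted p = 0.00345).

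Of the diphosphate kinases, which charge nucleoside diphosphates to triphosphates, Nme2 rose. It had 1317, 1110.3 and 1275 in the tumours, against 611 and 517 in the cerebellum samples, with no overlap and a log2 fold change of 1.11 ± 0.17 (adjusted p = 0.000455). Nme1 read 426, 298 and 344 in the tumours, against 269.99 and 224 in the cerebellum samples, again with every tumour above both cerebellum samples, but was not called, at 0.49 ± 0.22 (adjusted p = 0.114). After quantile normalization it was called, at 0.72 (adjusted p = 0.0258). The genes are close paralogues, and cross-hybridisation between their probe sets was not tested.

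In purine base salvage Hprt fell and Aprt was not called. Hprt, which returns hypoxanthine and guanine to the nucleotide pool, had 275, 213 and 245 in the tumours, against 409 and 354 in the cerebellum samples. All tumours were below both cerebellum samples, with a log2 fold change of -0.61 ± 0.20 (adjusted p = 0.0385). The call ended after quantile normalization (-0.39, adjusted p = 0.177), with equal array medians (-0.54, adjusted p = 0.0726), and without cerebellum 1 (-0.51), cerebellum 2 (-0.71) or tumour 3 (-0.62). Aprt, which salvages adenine, read 108, 111 and 104 in the tumours, against 84.3 and 95.2 in the cerebellum samples, with a log2 fold change of 0.23 ± 0.18 (adjusted p = 0.384), 95% interval -0.17 to 0.62.

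Probe sets of one gene often disagreed, and the choice among them decided several calls. Over the 87 tested probe sets 37 were higher and 2 were lower, or 42.5% and 2.3%, against 10.5% and 14.4% of all 33852 tested. On 430A 30 of 69 were higher, against 13.1% of all there, and on 430B 7 of 18, against 7.85%. Both lower ones were on 430A, where 19% of all were lower, against 9.77% on 430B. Of the 26 genes with more than 1 tested probe set, 5 had every probe set called higher, 9 had none called and 12 differed in call. The 5 were Rrm2, Dtymk, Dck, Atic and Mthfd2. The spread between probe sets was widest in Gmps (2.10 log2 units), Shmt1 (2.03), Dut (1.76), Rrm1 (1.57), Cad (1.21) and Gart (1.12). In 21 of the 39 genes at least 1 probe set was called higher. These counts of genes over several probe sets describe the members only, as no matching shares over all genes were computed.

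**Figure D4:**
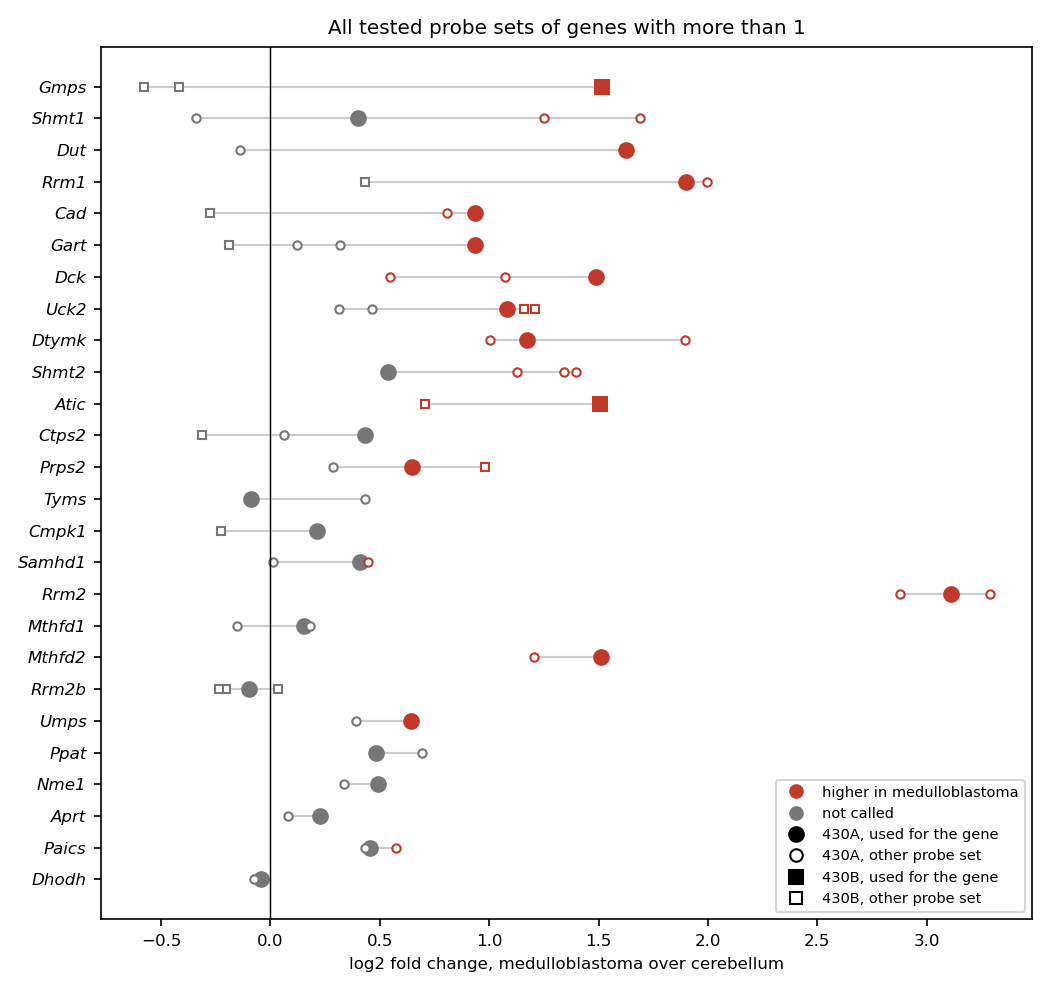
Log2 fold change of every tested probe set for the 26 genes with more than 1, widest spread at the top. Large symbols are the probe sets used for the genes, squares are 430B, red is called higher and grey is not called. Gmps and Shmt1 spread over 2.10 and 2.03 log2 units, while Rrm2 stays between 2.88 and 3.29.

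Cerebellum 1 exceeded cerebellum 2 in 10 of 11 dividing-cell markers, by a median of 0.36 log2 units, in 12 of the 17 higher members, by a median of 0.10, and in 12 of the 22 other members, by a median of 0.05. Over all genes tested it did so in 7244 of 14702, with a median of -0.0039. Leaving out cerebellum 1 put the log2 fold change at 5.18 for Top2a and 4.68 for Mki67, and leaving out cerebellum 2 put it at 3.20 and 3.32. The same steps gave 3.39 and 2.83 for Rrm2, 2.27 and 2.17 for Tk1, and 1.63 and 1.62 for Dut. Whether dividing cells in the cerebellum samples bear on these differences was not tested.

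**Figure D5:**
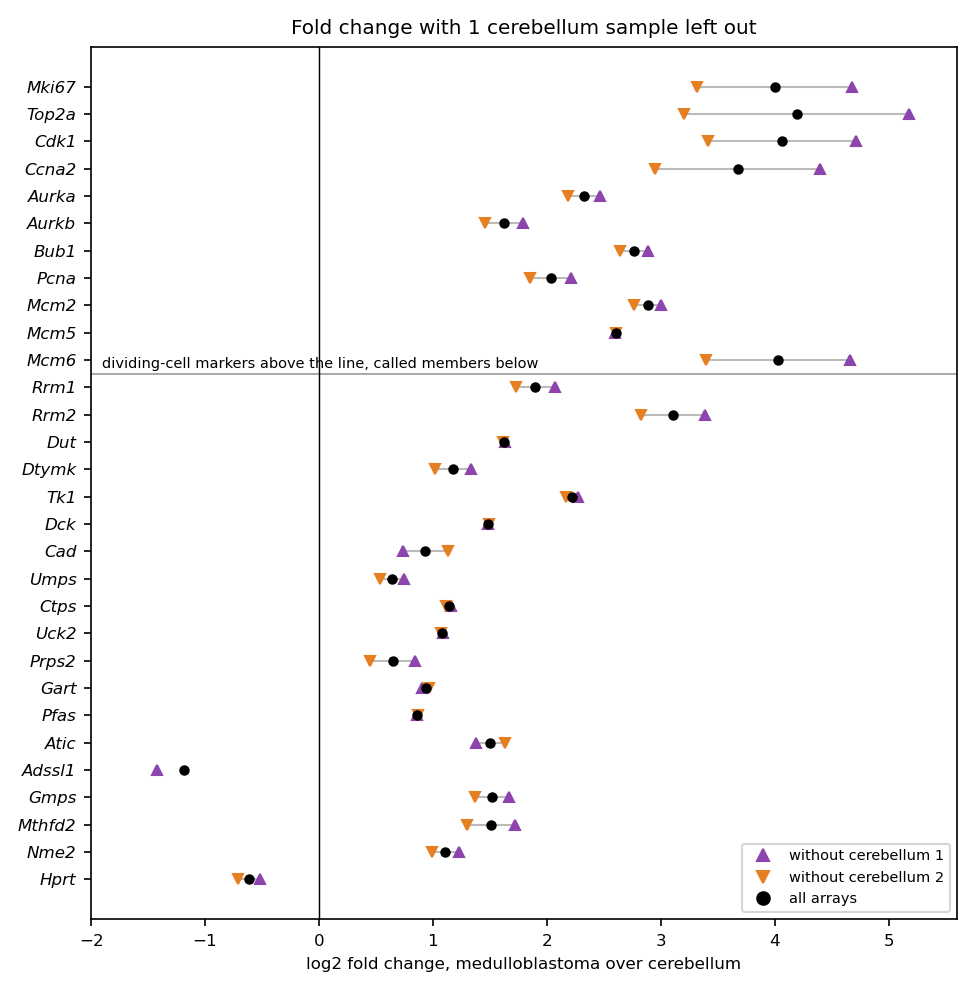
Log2 fold change with all arrays (black), without cerebellum 1 (upward triangles) and without cerebellum 2 (downward triangles) for 11 dividing-cell markers and the 19 called members. Top2a spans 3.20 to 5.18 and Rrm2 2.83 to 3.39, and Adssl1 has no value without cerebellum 2.

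Other genes of nucleotide and folate metabolism moved both ways. Of 62 listed genes 49 were tested, and 9 were higher and 8 lower, or 18.4% and 16.3%, against 10.7% and 16% of all genes tested, with a median log2 fold change of 0.06. The share of lower genes was thus near that of all genes. The largest rise was in Slc29a1, the equilibrative nucleoside transporter of the plasma membrane, which had 1050.2, 614 and 679.7 in the tumours, against 88.4 and 59.7 in the cerebellum samples. Its lowest tumour was several times the highest cerebellum sample, and the log2 fold change was 3.13 ± 0.26 (adjusted p = 5.99e-06). Dctpp1 and Nudt1, which clear unwanted nucleotides from the pool, changed by 1.99 ± 0.21 and 0.90 ± 0.17. Serine synthesis, which feeds one-carbon supply, rose in 2 of 3 genes, Psat1 (1.76 ± 0.21) and Phgdh (1.27 ± 0.28). Psat1 read 664, 462 and 538 in the tumours, against 147 and 154 in the cerebellum samples, without overlap. In the folate cycle 1 of 10 tested genes rose, Mthfd2l, a mitochondrial relative of Mthfd2 (1.75 ± 0.29), and 2 fell, Aldh1l1 (-1.38 ± 0.18) and Gldc (-0.86 ± 0.15). These shares of 10% and 20% are near those of all genes. Aldh1l1 is itself one of the 6 astrocyte markers. Of the other markers, Aqp4 (-2.28 ± 0.37), Slc1a3 (-2.17 ± 0.28) and Gdf10 (-2.87 ± 0.23) also fell, while Gfap (0.56 ± 0.22) and Slc1a2 (-0.59 ± 0.31) were not called, and the part of astrocytes in these values was not tested. Among further kinases and salvage enzymes 3 of 16 rose, among them Mtap (1.30 ± 0.17), which recovers adenine from methylthioadenosine, and Nme7 (0.81 ± 0.22), and 3 fell, among them the adenylate kinases Ak1 (-1.29 ± 0.17) and Ak4 (-0.99 ± 0.17). Each of these shares was 18.8%. Among 13 breakdown genes 2 fell, or 15.4%, near the share of all genes, and the others were not called. The pair that fell was Nt5m (-0.63 ± 0.21), a mitochondrial deoxynucleotidase, and Ampd3 (-0.54 ± 0.17), an AMP deaminase. Slc25a33, a mitochondrial pyrimidine nucleotide carrier, also fell (-1.43 ± 0.18). The call of Phgdh ended without cerebellum 1 (1.09, adjusted p = 0.0596), and that of Nme7 without either cerebellum sample, tumour 1 or tumour 3 (0.69 to 0.85, adjusted p = 0.0563 to 0.126). The call of Nt5m ended with equal array medians, with no filter on low values, after quantile normalization, and without cerebellum 2, tumour 1 or tumour 3 (-0.68 to -0.36, adjusted p = 0.058 to 0.379). The call of Ampd3 ended with no filter and without cerebellum 2 or tumour 1 (-0.54 to -0.36, adjusted p = 0.0535 to 0.309).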

How the data were processed

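The authors deposited linear intensity values, 1 per probe set and array, for 3 medulloblastoma and 2 cerebellum arrays on each of the 430A and 430B chips. Per the labels' protocols, RNA was extracted with Trizol and labelled as biotinylated cRNA by the Affymetrix procedure. Software and scaling were not given in the sources used here. Groups came from the sample titles. Between 298 and 477 values per array sit at exactly 1, so low values appear floored, and the number of arrays limits the precision.

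Array medians differed by at most 0.107 log2 units within a chip (0.0729 after adding 16), below the limit of 0.5 for rescaling, so values were used as deposited. Intensities were transformed to log2(value + 16), the lowest 25% of probe sets by mean were left out, and each chip was fitted with limma 3.58.1 (R 4.3.3; lmFit, eBayes with an intensity trend) without covariates, with Benjamini-Hochberg adjustment over its 16969 or 16883 tested probe sets. Pairs of related enzymes were compared by exact permutation tests (scipy 1.17.1).

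Probe sets were named by the platform annotation, updated through Entrez identifiers: 35041 probe sets name 1 gene, 936 several and 9160 are not listed, and 34837 were found in the RefSeq table of GRCm38.p6. A gene was represented by a probe set of 430A before 430B, then by a suffix other than _s_at and _x_at, then by the highest mean. Promoters came from RefSeq (GRCm38.p6) and matched 37 of the 40 symbols. The text names all measured members and up to 4 called genes per list of other pathway genes. Members, lists and tests were chosen with earlier results of these data known. Alternatives were pseudocounts of 1 and 64, quantile normalization, equal medians, other filters, no trend, the replicate number as a block, leaving out each sample, other choices of probe set, 430A alone, and scaling 430B on the 100 shared probe sets. Only a tumour carries replicate number 3 on each chip, so fold changes under the block did not draw on tumour 3.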

Additional observations from a re-analysis of the deposited data

Results flagged for a closer look

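A probe set annotated to both Tyms and the pseudogene Tyms-ps lies outside the members, since it names more than 1 gene, and carried a signal above the cerebellum level. Its intensity was 129.8, 75.6 and 117 in the tumours, against 18.3 and 10.9 in the cerebellum samples. The groups did not overlap, and tumours averaged 107 ± 28.2 (SD, n = 3) against 14.6 ± 5.21 in the cerebellum samples (SD, n = 2). The log2 fold change was 1.99 ± 0.22 (limma, adjusted p = 3.91e-05). The probe sets that name Tyms alone and were tested gave -0.09 ± 0.16 and 0.43 ± 0.17. The array values do not say which of the annotated genes was read. A probe set annotated to Prps1 and Prps1l3 had 169.8, 76.6 and 142 in the tumours, against 128 and 117 in the cerebellum samples, which overlapped, with 0.01 ± 0.28 (adjusted p = 0.979).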

How the results depend on the processing

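The count of 17 higher members stayed between 13 and 22 under all 17 alternatives, with 13 without either cerebellum replicate and 22 without medulloblastoma replicate 2. Over each whole chip, leaving out a cerebellum sample also lowered the number of calls. Without tumour 2 the higher probe sets rose from 2231 to 2800 on 430A and fell from 1326 to 823 on 430B. That number may stand for different tumours on the chips. Of the 20 members not called, 11 were not called under any alternative. The count of 2 lower members was 1 with equal array medians, with the lowest 50% left out, after quantile normalization and with the replicate block, and 0 to 2 with 1 sample left out. The count of 9 higher pathway genes outside the members was 6 to 12, and the count of 8 lower ones was 4 with the lowest 50% left out, 5 with no filter on low values, and 5 to 9 with 1 sample left out. On 430A, 2231 probe sets were higher and 3229 lower, and leaving out 1 sample gave 1284 to 2800 higher and 1967 to 3743 lower. On 430B, 1326 were higher and 1649 lower, and leaving out 1 sample gave 513 to 2601 higher and 917 to 2262 lower, the highest counts without tumour 3. With the replicate block, 430B had 2822 higher and 2395 lower. No cerebellum sample has number 3, and the block gave every member the same fold change as leaving out tumour 3. Gmps, for example, had 1.8475 in both fits, and Hprt had -0.618. The fold changes under the block therefore did not draw on tumour 3, and the block is not a separate check with all arrays. The labels do not say that replicate numbers pair the samples, and with 2 shared numbers per chip the values do not settle it: same-numbered tumours and cerebellum samples correlated in their deviations at -0.03 and 0.17 on 430A and 0.11 and 0.02 on 430B. Under the block Shmt2 was called (0.64, adjusted p = 0.00407) and Hprt was not (-0.62, adjusted p = 0.0563), and no other member changed its call. Scaling 430B on the shared probe sets gave 915 higher and 1951 lower, or 31.9% higher of calls against 44.6%, and moved the median over all probe sets of that chip to -0.15, against -0.02 as deposited. With 1 cerebellum array left, the lone array is assumed to vary like the tumours, and fewer arrays enter the fit. Members on 430B (Atic, Pfas, Gmps and Mthfd1l) rest on arrays whose tumour numbers, by correlation on the shared probe sets, may not match those of 430A. Quantile normalization gave 50.7% of calls higher on 430A, against 40.9%. For the pairs, a pseudocount of 1 moved Rrm2 against Rrm2b to 4.25, Tk1 against Tk2 to 3.38 and Adss against Adssl1 to 2.38. Shmt1 against Shmt2 has no settled sign: without cerebellum 1 the genes had 0.66 and 0.45. Where no cause is named for a change, the cause was not tested.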
